A study of Mus musculus with 14 samples.

Results

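Fatty acid desaturases place double bonds in fatty acyl chains, and elongases lengthen the chains by adding carbon units from malonyl-CoA in the endoplasmic reticulum. The genes described here are Scd1, Scd2, Scd3, Scd4, Fads1, Fads2, Fads3, Elovl2, Elovl5 and Elovl6, found by their symbols, and they are 10 of the 43346 genes in the count table. The family was chosen by the counts of Scd4, which fell with CP2 in APP/PS1 mice, so the levels of Scd4 are given as a description, without a test. The comparison of CP2 with vehicle in APP/PS1 mice is given the same way for the other members, since the choice used it.

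Stearoyl-CoA desaturases (Scd) introduce the first double bond into saturated fatty acids, which gives oleic and palmitoleic acid for membrane lipids, myelin and stored fat. Fads1 and Fads2 are the front-end desaturases that make arachidonic acid and docosahexaenoic acid from dietary precursors, while the substrates of Fads3 are less well defined. Elovl6 extends saturated and monounsaturated chains, and Elovl5 and Elovl2 extend polyunsaturated chains, Elovl2 acting on the longer of them. In the brain, docosahexaenoic acid is a major component of neuronal membranes, and astrocytes are known to take part in its synthesis.

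RNA sequencing was performed on a brain region with hippocampal and cortical tissue from 14 mice of the C57BL/6;SJL-Tg strain aged 23 months. There were 4 non-transgenic (NTG) mice (numbers 7 to 10), 5 APP/PS1 mice (16 to 20) and 5 CP2-treated APP/PS1 mice (21 to 25), and the genotype of both APP/PS1 groups is labelled APP/PS1 +/+. APP/PS1 mice carry familial Alzheimer's disease mutations in transgenes for APP and PS1 and are a model of amyloid disease. CP2 is a tricyclic pyrone that partially inhibits mitochondrial complex I, and it was given at 25 mg/kg/day in drinking water with 0.1% PEG from 9 months of age, that is for 14 months. The labels call the mice of the other groups non-treated, and the treatment protocol describes vehicle water with 0.1% PEG. NTG mice given CP2 were not analysed here, so an effect of CP2 without the transgenes could not be assessed.

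Total counts were between 70548781 and 106235625 per mouse. All 6 neuronal markers examined were present at 137 CPM or more in every mouse, where CPM are counts scaled to a common library total with TMM factors, and the 6 adipocyte markers together summed to at most 0.656 CPM. Mouse 16 stood apart in striatal tissue: its 8 striatal markers summed to 2057 CPM, against 147 to 302 CPM in the other mice. Other tissue varied within the groups too. The 6 choroid plexus markers summed to 20.4 to 951 CPM in NTG, 26.5 to 1361 CPM in APP/PS1 and 189 to 745 CPM in CP2-treated mice. The 8 oligodendrocyte markers summed to 5390 to 7810, 4831 to 7311 and 5573 to 6306 CPM in the same order. The genes Yam1 and AY036118, which resemble ribosomal RNA and were singled out after their values were seen, took 4.72 to 7.50% of all counts in NTG, 2.40 to 5.51% in APP/PS1 and 4.49 to 7.40% in CP2-treated APP/PS1 mice. In bulk tissue, fewer cells of a type and less RNA per cell cannot be told apart.

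The 4 Scd genes are close relatives and neighbours on chromosome 19, so it matters whether reads can tell them apart. Identity of their coding sequences was between 83.8% for Scd2 and Scd4 and 91.5% for Scd1 and Scd3. The stretch of 60 bases below lies in the coding part of exon 2 of each gene (GRCm38, GENCODE M21), and capitals mark bases that differ from Scd4, 8 in Scd1, 6 in Scd2 and 8 in Scd3. Scd1 is on the minus strand at chr19:44406591-44406650, and Scd2 (chr19:44295023-44295082), Scd3 (chr19:44215521-44215580) and Scd4 (chr19:44334098-44334157) are on the plus strand.
Scd1: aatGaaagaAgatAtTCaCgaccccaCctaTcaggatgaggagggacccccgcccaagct
Scd2: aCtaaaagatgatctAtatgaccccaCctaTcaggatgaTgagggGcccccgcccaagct
Scd3: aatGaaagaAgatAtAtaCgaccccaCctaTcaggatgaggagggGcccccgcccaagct
Scd4: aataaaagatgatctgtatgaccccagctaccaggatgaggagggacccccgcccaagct

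Reads were 101 bases long. Of the 101-base words in the Scd4 transcript 0.499% also occurred in a transcript of another gene (Scd1), against 2.62% for Scd1, 2.51% for Scd3 and 0.878% for Scd2. For Fads1, Fads2, Fads3, Elovl2 and Elovl5 no word was shared, and for Elovl6 0.94% were shared with Gm11295. By exact matches of whole reads, counts of the Scd genes are therefore uncertain over these short stretches. The shares count words and are not weighted by abundance. In CP2-treated mice the mean of Scd1 was 289 CPM and that of Scd4 0.905 CPM. The part of Scd1 reads in the counts of Scd4 was not tested.

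Scd3 and Scd4 also share a run of letters upstream. Among the 7 members with a RefSeq promoter entry (Scd3, Scd4, Fads2, Fads3, Elovl2, Elovl5 and Elovl6, GRCm38.p6), TTTAAA was found on either strand of the 250 upstream bases in Scd3 and Scd4 and in no other. It occurred in 12.1% of all 32851 promoters, so it is common, and TATAAA, present in 12.4%, was found in 0 of the 7. The runs of 30 bases around the match are shown for these 2 genes because Scd4 carries the largest difference in the family and Scd3 is its relative, with the match in capitals.
Scd3: tcagccagagccTTTAAAtatgctgcttgg
Scd4: ctctacatacccTTTAAAtcctgtgcctgg

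The Scd3 run lies at chr19:44203232-44203261 and the Scd4 run at chr19:44333284-44333313, both on the plus strand. For Scd4 the RefSeq start at 44333326 lies inside the gene of the count table, which begins at 44333092, so this run is upstream in one annotation and within the gene in the other. GGGCGG was found in Fads2, Fads3 and Elovl2 (32.7% of all promoters), CCAAT in Fads3 and Elovl5 (33.8%), CACGTG in Elovl5 (6.02%) and TCACNCCAC, a form of the sterol response element, in 0 of the 7 (1.05%). Both strands were searched, and matches of different motifs could overlap.

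Scd4 was the least abundant member and the one that differed most with CP2. In NTG mice 7 to 10 its levels were 3.92, 1.19, 3.67 and 4.12 CPM. In APP/PS1 mice 16 to 20 they were 2.80, 3.15, 3.75, 3.56 and 2.28 CPM, and in CP2-treated mice 21 to 25 they were 0.971, 0.847, 0.678, 1.10 and 0.929 CPM. Every CP2-treated mouse was below every other mouse, and NTG mouse 8 was the only untreated mouse close to them.

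**Figure D1:**
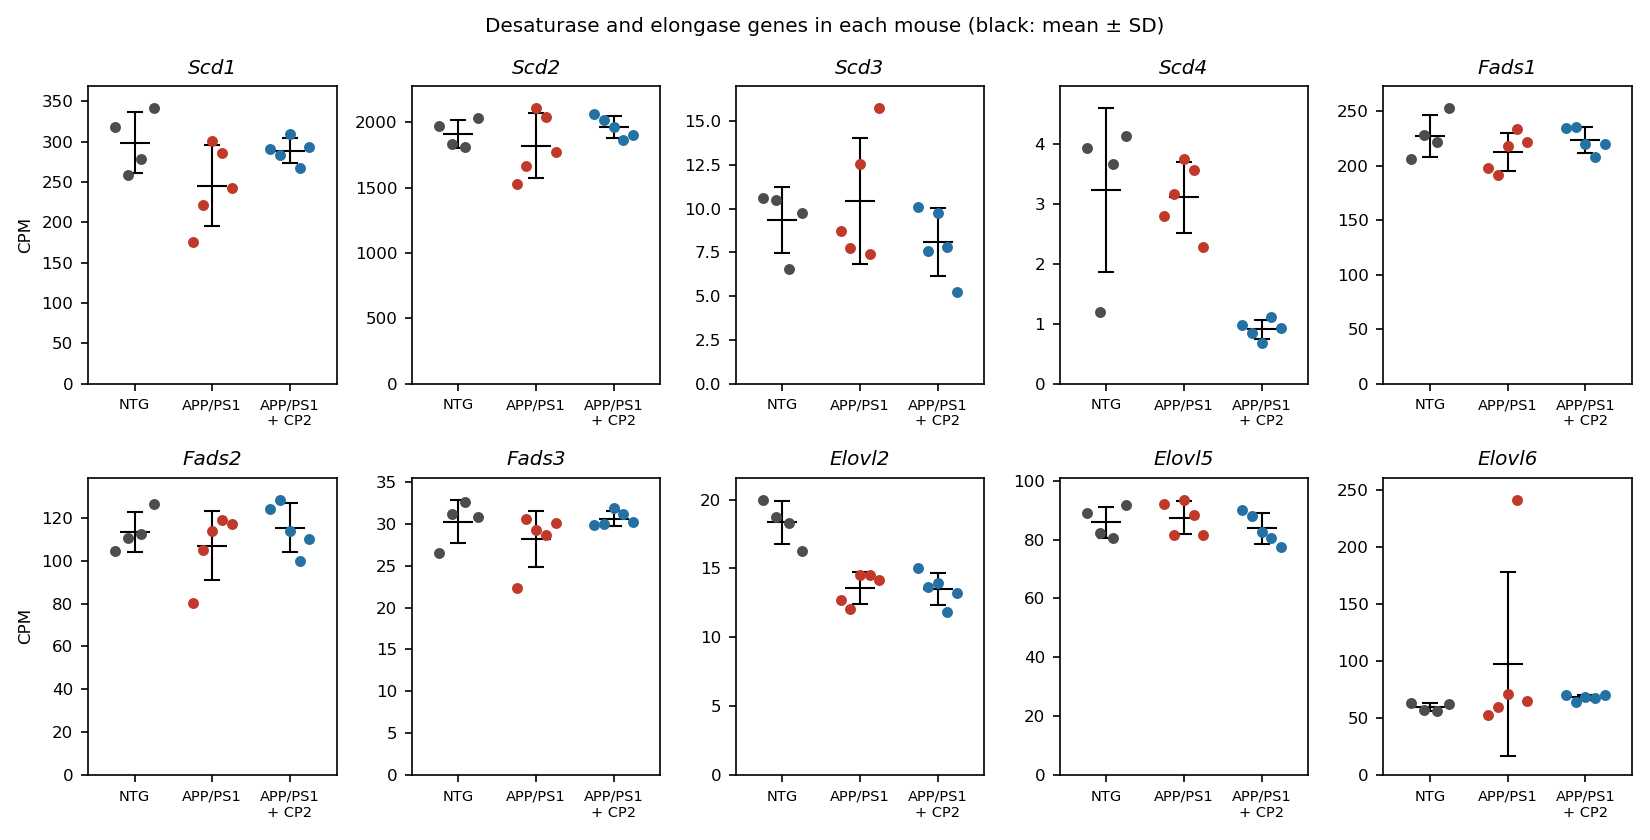
CPM of the 10 genes in each of 14 mice, grouped as NTG, APP/PS1 and CP2-treated APP/PS1, with the mean and SD of each group in black and each axis starting at 0. Scd4 lies between 0.678 and 1.10 CPM in the 5 CP2-treated mice, Elovl2 is highest in the 4 NTG mice, and 1 APP/PS1 mouse has Elovl6 at 242.0 CPM.

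The group means of Scd4 were 3.22 ± 1.37 CPM in NTG (SD, n = 4), 3.11 ± 0.592 CPM in APP/PS1 (SD, n = 5) and 0.905 ± 0.157 CPM in CP2-treated mice (SD, n = 5). The log2 fold change was -1.77 (SE 0.17) in CP2-treated against vehicle APP/PS1 mice, a level of 0.293 times. It was -1.82 (SE 0.30) against NTG mice, and -0.05 (SE 0.31) between APP/PS1 and NTG mice. These values rested on 52 to 117 reads per CP2-treated mouse and 80 to 406 reads in the others. Without mouse 8, the NTG mean was 3.90 ± 0.228 CPM (SD, n = 3) and the difference of CP2-treated mice from NTG was -2.08.

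Separate CPM ranges in CP2-treated and vehicle APP/PS1 mice were seen for 187 of 16407 genes (1.14%), and Scd4 was the only member among them. An adjusted p under 0.05 in edgeR was reached by 0.00609% of the genes in that comparison. Both percentages come from the contrast that chose the family, are given as background, and nothing about Scd4 is read from them.

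Within each group, the mouse with the most ribosomal RNA-like counts had the lowest Scd4, namely mouse 8 (7.50%, 1.19 CPM) in NTG, mouse 20 (5.51%, 2.28 CPM) in APP/PS1 and mouse 23 (7.40%, 0.678 CPM) in CP2-treated mice. The other NTG mice kept this order. In APP/PS1, mice 16 (2.40%, 2.80 CPM) and 17 (2.68%, 3.15 CPM) were below mice 18 (4.01%, 3.75 CPM) and 19 (4.51%, 3.56 CPM). Mouse 24, with the next largest share among CP2-treated mice (4.88%), had their highest Scd4 (1.10 CPM). With the log2 share as a covariate, added after the data were seen, the log2 fold change of Scd4 was -1.68 (SE 0.20) against APP/PS1 and -1.91 (SE 0.21) against NTG mice.

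**Figure D2:**
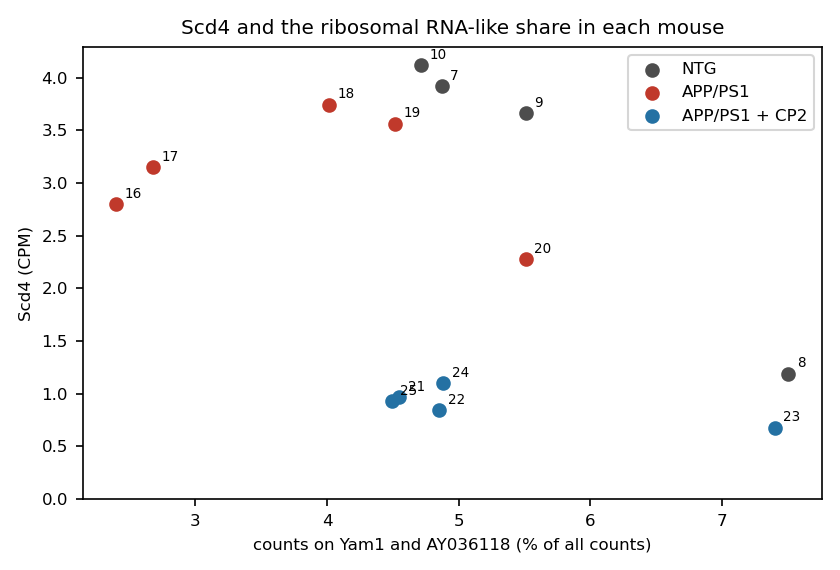
Scd4 in CPM against the share of counts on Yam1 and AY036118 in percent, 1 point per mouse with its number, coloured by group. The CP2-treated mice lie at 0.678 to 1.10 CPM across shares of 4.49 to 7.40%, and NTG mouse 8, at 7.50%, lies at 1.19 CPM.

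The other stearoyl-CoA desaturases differed by less between groups than Scd4. Scd1, the main form in liver and fat, was at 317, 258, 278 and 342 CPM in NTG, at 176, 222, 301, 286 and 243 CPM in APP/PS1, and at 291, 283, 310, 267 and 293 CPM in CP2-treated mice. The ranges of all groups overlapped, with the lowest values in mice 16, 17 and 20. The log2 fold change in APP/PS1 against NTG mice was -0.28 (SE 0.15, edgeR adjusted p = 0.381), and in CP2-treated against vehicle APP/PS1 mice it was 0.24 (SE 0.12). Without mouse 16, the mouse with striatal markers, these were -0.18 and 0.14.

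Scd2, the main form in brain, ranged from 1526 to 2110 CPM over all mice, with means of 1914 ± 108 CPM in NTG (SD, n = 4), 1823 ± 249 CPM in APP/PS1 (SD, n = 5) and 1963 ± 82.4 CPM in CP2-treated mice (SD, n = 5). Its difference between CP2-treated and NTG mice was 0.05 on the log2 scale (SE 0.06, edgeR adjusted p = 0.686). Scd3 was at 6.57 to 10.6 CPM in NTG, 7.42 to 15.8 CPM in APP/PS1 mice and 5.23 to 10.1 CPM in CP2-treated mice, and had an SD of 3.61 CPM among APP/PS1 mice. Its log2 fold change in CP2-treated against vehicle APP/PS1 mice was -0.37 (SE 0.23), and -0.20 (SE 0.19, edgeR adjusted p = 0.626) against NTG.

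Levels of different genes can be compared only per length, and for this the deposited RPKM values were used, which are reads per kilobase scaled to library size. Scd2 made up 84.3 ± 0.957% of the summed RPKM of the 4 Scd genes in NTG (SD, n = 4), 86.1 ± 0.938% in APP/PS1 and 85.2 ± 0.645% in CP2-treated mice (SD, n = 5 each). Scd1 made up 14.8, 12.95 and 14.1% in the same order. Scd4 made up 0.203 ± 0.0819% in NTG, 0.213 ± 0.0310% in APP/PS1 and 0.0571 ± 0.0114% in CP2-treated mice, a small part of the sum in every group.

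Over all mice, the order of mean RPKM was Scd2 (287), Fads2 (61.1), Fads1 (52.6), Scd1 (47.0), Elovl5 (20.1), Elovl6 (10.6), Fads3 (7.47), Elovl2 (3.18), Scd3 (2.206) and Scd4 (0.516). The ranges over mice did not overlap between Scd2 and Fads2, between Scd1 and Elovl5, between Fads3 and Elovl2, or between Scd3 and Scd4. They overlapped between Fads2 and Fads1, between Fads1 and Scd1, between Elovl6 and Fads3, and between Elovl2 and Scd3. Elovl5 and Elovl6 overlapped only through mouse 19, and Elovl5 was higher in the other 13 mice. The place of Fads2 depended on its length, since the deposited values divide its reads by 1508 bases. With the 3150 bases of the GENCODE transcript the same reads would give a mean of 29.3 RPKM, below that of Scd1. Whether those reads were counted over all 3150 bases was not tested, so its true place is uncertain.

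**Figure D3:**
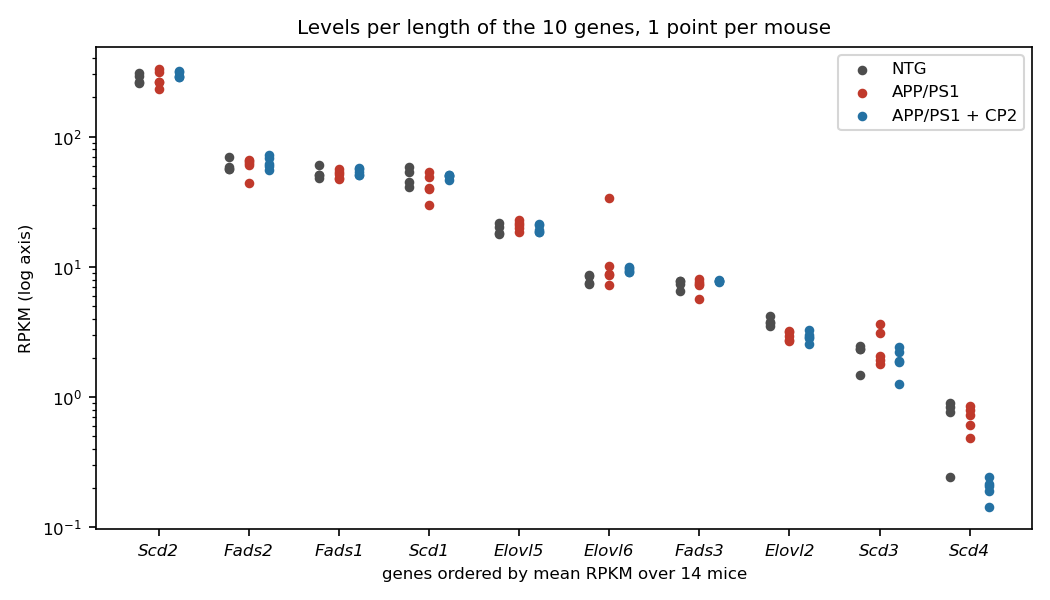
RPKM of the 10 genes on a log axis, ordered by their mean over 14 mice, 1 point per mouse and coloured by group. Scd2 lies above 231 RPKM in every mouse and Scd4 below 0.907 RPKM, with the CP2-treated mice at 0.143 to 0.245 RPKM.

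No difference of the front-end desaturases from NTG passed the threshold. Fads1, the delta-5 desaturase, had means of 227 ± 19.4 CPM in NTG (SD, n = 4), 213 ± 17.4 CPM in APP/PS1 mice and 224 ± 11.7 CPM in CP2-treated mice (SD, n = 5 each). Fads2, the delta-6 desaturase, was at 114 ± 9.36, 107 ± 16.01 and 115 ± 11.5 CPM in the same order. Fads3 was at 30.3 ± 2.62, 28.2 ± 3.33 and 30.6 ± 0.860 CPM. The ranges of all 3 groups overlapped for each of these genes.

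Against NTG, the log2 fold changes of Fads1, Fads2 and Fads3 were -0.09, -0.08 and -0.09 in APP/PS1 mice, with edgeR adjusted p between 0.617 and 0.785. In CP2-treated mice they were -0.01, 0.03 and 0.03, with edgeR adjusted p between 0.839 and 0.936. Between the APP/PS1 groups they were 0.07 (SE 0.06), 0.11 (SE 0.11) and 0.12 (SE 0.08). Mouse 16 was lowest of all 14 mice for Fads2, at 80.1 CPM, and for Fads3, at 22.4 CPM. Without it the mean of Fads3 in APP/PS1 mice was 29.6 ± 0.857 CPM (SD, n = 4).

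Elovl2, which acts on longer polyunsaturated chains than Elovl5, was lower in both APP/PS1 groups than in NTG mice. Its levels were 20.001, 18.7, 18.3 and 16.3 CPM in NTG mice 7 to 10, and 12.7, 12.03, 14.5, 14.6 and 14.2 CPM in APP/PS1 mice 16 to 20. In CP2-treated mice 21 to 25 they were 15.0, 13.7, 13.97, 11.8 and 13.2 CPM. Every NTG mouse was above every APP/PS1 mouse, treated or not, and the ranges of the treated and untreated mice overlapped.

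The log2 fold change of Elovl2 was -0.42 (SE 0.09, edgeR adjusted p = 0.0169) in APP/PS1 and -0.43 (SE 0.08, edgeR adjusted p = 0.0112) in CP2-treated APP/PS1 mice, both against the same NTG mice. Between the APP/PS1 groups it was -0.01 (SE 0.08). In APP/PS1 against NTG mice the adjusted p rose to 0.0509, 0.0529 and 0.0534 when mouse 7, 8 or 9 was left out, and to 0.143, with a log2 fold change of -0.31, when the ribosomal RNA-like share was a covariate. In CP2-treated against NTG mice it stayed at or below 0.0372 whichever mouse was left out.

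The summed level of astrocyte markers was lower in every APP/PS1 mouse than in every NTG mouse. A large part of each sum came from 1 gene, Slc1a2, at 2032 to 3438 CPM over all mice. The 8 markers, among them the glutamate transporter Slc1a2 and the water channel Aqp4, summed to 5264 to 5805 CPM in NTG, 4538 to 5067 CPM in APP/PS1 mice and 4603 to 4994 CPM in CP2-treated mice, and none of them was at 0. By edgeR, 2 of the 8 fell in each comparison with NTG, and 1 rose in CP2-treated mice. Within NTG, mouse 7 had the highest Elovl2 and the lowest astrocyte sum. In APP/PS1 mice the order went the other way, with mouse 17 lowest and mouse 19 highest in both. Among CP2-treated mice, mouse 21 was highest in both, mouse 25 had the lowest sum and mouse 24 the lowest Elovl2. The 6 reactive astrocyte markers, such as Gfap, all rose in both comparisons, from 474 to 734 CPM in NTG to 1383 to 3361 CPM in APP/PS1 mice and 1617 to 2744 CPM in CP2-treated mice. Their part in the difference of Elovl2 was not tested.

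Elovl5, which extends polyunsaturated chains of intermediate length, was at 85.9 ± 5.30 CPM in NTG (SD, n = 4), 87.4 ± 5.69 CPM in APP/PS1 mice and 83.8 ± 5.20 CPM in CP2-treated mice (SD, n = 5 each). Its differences were 0.03 on the log2 scale in APP/PS1 (SE 0.06, edgeR adjusted p = 0.827) and -0.02 in CP2-treated APP/PS1 mice (SE 0.06, edgeR adjusted p = 0.871), both against NTG.

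Elovl6, which extends palmitic to stearic acid, was at 63.2, 57.4, 56.6 and 62.0 CPM in NTG and at 70.4, 64.1, 68.3, 67.9 and 70.0 CPM in CP2-treated mice. In APP/PS1 mice it was at 52.7, 59.4, 70.8, 242.0 and 64.8 CPM. Every CP2-treated mouse was above every NTG mouse by a small margin, and mouse 19 was far above all others. The mean in APP/PS1 mice was 97.9 ± 80.8 CPM (SD, n = 5), and without mouse 19 it was 61.9 ± 7.72 CPM (SD, n = 4).

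Accordingly, the log2 fold change in APP/PS1 against NTG mice was 0.73 with mouse 19 (SE 0.44, edgeR adjusted p = 0.431) and 0.05 without it (edgeR adjusted p = 0.820). In CP2-treated against vehicle APP/PS1 mice it was -0.53 with mouse 19 (SE 0.39) and 0.14 without it. Between CP2-treated and NTG mice it was 0.20 (SE 0.05, edgeR adjusted p = 0.0364). That call was lost when any of 7 of the 9 mice was left out, with edgeR adjusted p up to 0.109, and in the fit of all 3 groups together, at 0.850.

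The high level of Elovl6 in mouse 19 rested on 19555 reads. It was 3.42 times the highest level in any other mouse, and Elovl6 was the only one of 16521 genes that mouse 19 raised more than 2 times above all others, the next gene being at 1.87 times. Mouse 16 had 84 such genes, mouse 7 had 12 and mouse 18 had 5, while the remaining mice had 0 or 1. The genes around Elovl6 on chromosome 3 were named after their values were seen. Enpep was at 1.02, Egf at 1.06, Gar1 at 0.983 and Sec24b at 0.991 times the median of the other 13 mice, each within the range of those mice. Cfi, downstream on the same chromosome and counted on 67 reads, was at 0.8291 CPM in mouse 19 against at most 0.576 CPM elsewhere. This was 7.95 times the median of the other 13 mice (0.104 CPM), a larger ratio than the 3.78 of Elovl6, at a far lower level. Gm11295, which shares words with Elovl6, was at 0.272 CPM, within the range of 0.104 to 0.339 CPM in the others.

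**Figure D4:**
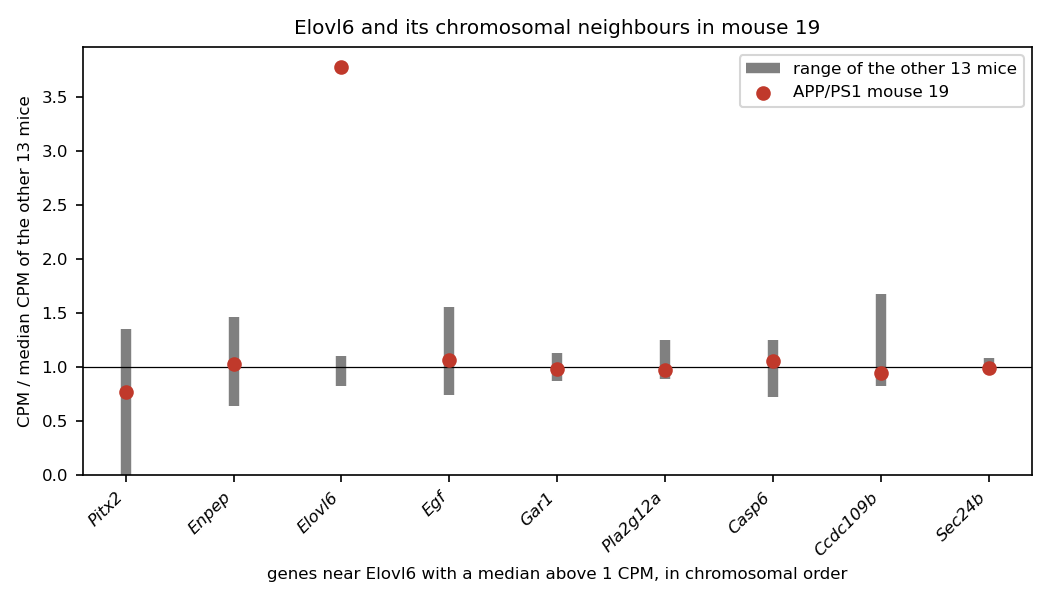
CPM in APP/PS1 mouse 19 (red) divided by the median of the other 13 mice, for Elovl6 and the genes within 500000 bases of it that have a median above 1 CPM, in chromosomal order. Grey bars give the range of the other 13 mice. Elovl6 is at 3.78 times the median and each of the other genes shown lies within the grey bar.

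All 10 members passed the filter on low counts. Of the 9 members other than Scd4, 1 (Elovl2) passed an adjusted p of 0.05 in APP/PS1 against NTG mice, where 5.68% of all genes tested did. In CP2-treated against NTG mice 2 did (Elovl2 and Elovl6), against 6.02% of all genes. The CPM ranges did not overlap for 1 of these 9 members (Elovl2) in the first of these comparisons, against 10% of all genes. In the second they did not overlap for 2 of the 9 (Elovl2 and Elovl6), against 9.61%. Scd4 is left out of these counts, since the family was chosen by it, but is included in the medians that follow. The median log2 fold change of the 10 members was -0.07 between APP/PS1 and NTG mice, 0.03 between the APP/PS1 groups and -0.02 between CP2-treated and NTG mice, beside -0.0042, -0.0060 and -0.0015 for all genes. The comparisons share mice, since the untreated APP/PS1 mice enter the first and second, and the NTG mice enter both comparisons with NTG.

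**Figure D5:**
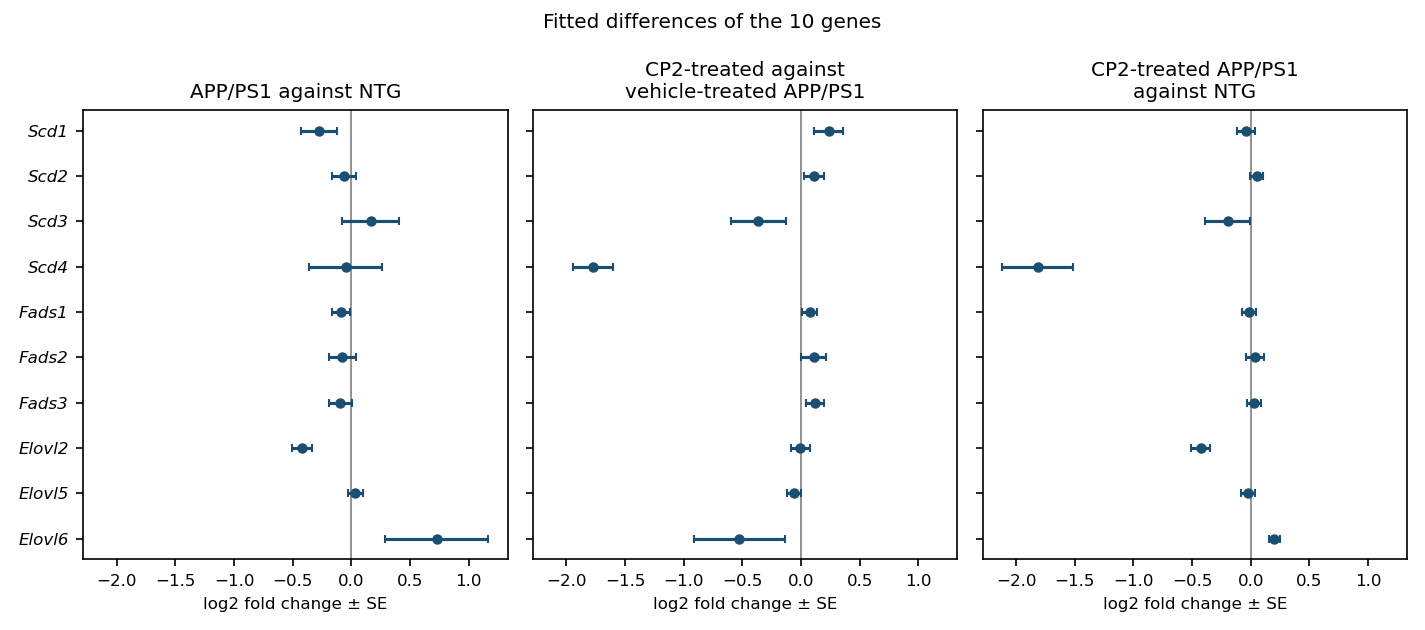
Log2 fold change of the 10 genes with its standard error (bars) from edgeR in the 3 comparisons. Scd4 lies at -1.77 and -1.82 in both comparisons of CP2-treated mice, Elovl2 at -0.42 and -0.43 against NTG, and Elovl6 has a wide bar wherever APP/PS1 mouse 19 takes part.

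The enzymes that serve the members were examined through 9 lists of 90 genes, of which 85 were tested. Against NTG, 9 of the 85 rose and 1 fell in APP/PS1 mice (11.8%, against 5.68% of all genes), and 12 rose and 4 fell in CP2-treated APP/PS1 mice (18.8%, against 6.02%). The lists were put together with earlier results of these data known. Of the other desaturases and elongases, 0 of 6 tested passed the threshold in either comparison. Elovl1 and Elovl7, elongases of saturated very long chains, had log2 fold changes of 0.31 (edgeR adjusted p = 0.154) and -0.09 (edgeR adjusted p = 0.843) in APP/PS1 mice. Elovl4, the elongase of very long polyunsaturated chains, had -0.12 (edgeR adjusted p = 0.300). Degs1, which desaturates dihydroceramide, had 0.17 (edgeR adjusted p = 0.0891).

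Among the 5 tested electron donors of desaturases, Cyb5r3, the cytochrome b5 reductase, rose in both comparisons. Its level was 51.3 ± 2.70 CPM in NTG (SD, n = 4), 68.5 ± 3.51 CPM in APP/PS1 mice and 63.0 ± 3.85 CPM in CP2-treated mice (SD, n = 5 each), with log2 fold changes of 0.42 (edgeR adjusted p = 0.00161) and 0.31 (edgeR adjusted p = 0.0106). Of the 6 partners in the elongation cycle, Hacd4, a 3-hydroxyacyl-CoA dehydratase, rose in APP/PS1 mice by 0.42 (SE 0.07, edgeR adjusted p = 0.00771) and had 0.29 in CP2-treated mice (edgeR adjusted p = 0.0824). Microglial markers rose in the same mice, 8 of 8 in APP/PS1 and 6 of 8 in CP2-treated mice, with sums of 370 to 390 CPM in NTG, 700 to 976 CPM in APP/PS1 mice and 573 to 876 CPM in CP2-treated mice. Their part in these differences was not tested.

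For genes upstream of the members, the shares of all genes called against NTG were again 5.68% in APP/PS1 and 6.02% in CP2-treated mice. In fatty acid synthesis 0 of 10 genes passed the threshold in APP/PS1 mice. There Acaca, the acetyl-CoA carboxylase that makes malonyl-CoA, had 0.18 (edgeR adjusted p = 0.346). In CP2-treated against NTG mice 1 of 10 passed, Acaca, which rose by 0.23 (SE 0.05, edgeR adjusted p = 0.0368). Fasn, the fatty acid synthase, had 0.10 in that comparison (edgeR adjusted p = 0.304). Of 18 regulators, Mlxipl, which encodes the carbohydrate response factor ChREBP, rose in APP/PS1 mice by 0.99 (SE 0.14, edgeR adjusted p = 0.00218) and in CP2-treated mice by 0.90 (SE 0.15, edgeR adjusted p = 0.00459). Ppara, a nuclear receptor for fatty acids, fell in CP2-treated against NTG mice by 0.40 on the log2 scale (SE 0.10, edgeR adjusted p = 0.0492). In APP/PS1 against NTG mice it had -0.48 (SE 0.13, edgeR adjusted p = 0.0632). Srebf1, the sterol regulatory factor known to act on Scd and Fads genes, had 0.09 in APP/PS1 (edgeR adjusted p = 0.733) and 0.11 in CP2-treated mice (edgeR adjusted p = 0.454). Insig1, which retains that factor, and Nr1h3, the liver X receptor alpha, had values between -0.01 and 0.15, with edgeR adjusted p of 0.378 or more.

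In sterol synthesis, 3 of 14 genes rose in APP/PS1 and 8 of 14 in CP2-treated mice against NTG, with median log2 fold changes of 0.24 in both. The 3 with the smallest p in CP2-treated mice were Sqle (0.33, edgeR adjusted p = 0.000688), Nsdhl (0.50, edgeR adjusted p = 0.00203) and Fdps (0.35, edgeR adjusted p = 0.00287), enzymes of the cholesterol pathway. Between the APP/PS1 groups, 0 of these 14 genes passed the threshold, with 7 higher, 7 lower and a median log2 fold change of 0.0055. Over all lists 0 of 85 genes passed it there, where 0.00609% of all genes did. Whether the 2 comparisons with NTG differed for the list as a set was not tested. Of 8 acyl-CoA synthetases, 1 fell in APP/PS1 and 3 in CP2-treated mice. Acsl6, a form linked to docosahexaenoic acid, fell in both, by 0.25 (edgeR adjusted p = 0.0212) and by 0.14 on the log2 scale (edgeR adjusted p = 0.0468). Acsbg1 and Slc27a1 fell in CP2-treated mice, by 0.31 (edgeR adjusted p = 0.0110) and by 0.30 (edgeR adjusted p = 0.00588). In APP/PS1 mice they had -0.30 (edgeR adjusted p = 0.0968) and -0.23 (edgeR adjusted p = 0.0614).

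Of 14 glycerolipid and lipid droplet genes, 3 rose in APP/PS1 mice, namely the droplet proteins Plin4 by 1.73 (SE 0.38, edgeR adjusted p = 0.0250) and Plin2 by 0.56 (SE 0.13, edgeR adjusted p = 0.0350), and the acyltransferase Agpat2 by 0.69 (SE 0.16, edgeR adjusted p = 0.0370). In CP2-treated mice Plin4 had 0.34 (edgeR adjusted p = 0.140), Plin2 0.39 (edgeR adjusted p = 0.173) and Agpat2 0.45 (edgeR adjusted p = 0.0586). In those mice 1 gene rose, the phosphatidate phosphatase Lpin1, by 0.31 (SE 0.05, edgeR adjusted p = 0.00642). Lpin1 had 0.13 in APP/PS1 mice (edgeR adjusted p = 0.525). Plin4 ranged from 11.2 to 47.8 CPM in APP/PS1 mice, above the 6.81 to 8.88 CPM of NTG, and from 8.65 to 12.7 CPM in CP2-treated mice. Of 4 fatty acid binding proteins 0 passed the threshold, and Fabp7, the brain form found in astrocytes and progenitors, had 0.39 in APP/PS1 mice (SE 0.26, edgeR adjusted p = 0.496).

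The genes whose pattern was most like that of Scd4 over the 14 mice were sought by Pearson correlation of log2 CPM with 16520 other genes. They were Gm12892 (r = 0.878), Samd11 (0.808), Dnajc9 (0.807), Dus1l (0.795) and 1700019G17Rik (0.792). The mice fall into groups and their libraries differ in depth, so these coefficients are descriptions. Gm12892 was at 49.8 ± 10.8 CPM in NTG (SD, n = 4), 43.1 ± 7.73 CPM in APP/PS1 mice and 30.7 ± 1.77 CPM in CP2-treated mice (SD, n = 5 each), and its coefficient with Scd4 after removal of the group means was 0.760. By Spearman correlation 3 of the 5 genes were again among the nearest 5.

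For Elovl2 the nearest genes were Gpt (0.969), the alanine aminotransferase, and Bcl2l2 (0.930). Gpt was at 14.8 ± 0.862 CPM in NTG (SD, n = 4), 12.04 ± 0.866 CPM in APP/PS1 mice and 12.1 ± 0.596 CPM in CP2-treated mice (SD, n = 5 each). For Scd1 they were Dgkq (0.949) and Gpld1 (0.949), and for Scd2 Smim17 (0.970) and Mir5114 (0.965), which lies inside Scd2 and shares its reads in the authors' counting. For Scd3 they were Ufc1 (0.775) and Ncl (0.773), the lowest coefficients of the family. For Fads1 they were Ston2 (0.892) and Mvb12b (0.883), for Fads2 Kcnmb2 (0.882) and Cachd1 (0.879), and for Fads3 Napepld (0.935) and Gng2 (0.929). For Elovl5 they were Iah1 (0.959) and Abcb10 (0.857), and for Elovl6, where mouse 19 sets the pattern, Zdhhc3 (0.916) and Lmnb1 (0.845), with Spearman coefficients of 0.560 and 0.209.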

How the data were processed

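The authors prepared TruSeq libraries from total RNA, aligned paired reads to mm10 using TopHat and obtained gene counts for Ensembl models from featureCounts, with a setting that counts a read on every feature it overlaps, so genes inside others share reads. Strand use was not given in the sources used here. The authors deposited raw read counts and RPKM per gene, the RPKM values using their own gene lengths and totals above the summed gene counts. No fold changes of the authors were used.

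The members and lists were chosen with earlier results of these data known. Each pair of groups was fitted alone with edgeR 4.0.16 (TMM factors, quasi-likelihood test, Benjamini-Hochberg adjustment over all genes tested) in R 4.3.3, for genes with a robust CPM above 1 in every mouse of at least 1 group. Standard errors follow from the test statistic. The authors' methods tested with DESeq2 and unadjusted p-values. Scd4, and all members between the APP/PS1 groups, got no p. Log2 CPM used a prior count of 2.

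Alternatives were DESeq2 1.42.0, RLE and upper-quartile factors, no filter, a filter of 10 counts per mouse, limma-voom (limma 3.58.1) with quality weights, a joint fit of the 3 groups, each mouse left out, counts per kilobase and Spearman correlation. The ribosomal RNA-like share as a covariate was added after seeing the data. The fits were tested on simulated data. Total counts of 70548781 to 106235625 make 1 count worth 0.00923 to 0.0149 CPM. Replicates are separate mice.

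Named genes were the members, the genes nearest in pattern (5 for Scd4, 2 for each other member), up to 3 genes with the smallest p and an adjusted p under 0.05 in each list and comparison with NTG, and Srebf1, Fasn, Acaca, Insig1, Nr1h3, Fabp7, Acsbg1, Degs1, Elovl1, Elovl4 and Elovl7. Any other gene was named after its values were seen. Coding sequences were aligned with MAFFT 7.526, and promoters were taken from RefSeq.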

Additional observations from a re-analysis of the deposited data

Results flagged for a closer look

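Within each group the gap between the highest or lowest mouse and its nearest neighbour was compared with Dixon's critical value, over 30 groups of CPM values, of which chance would flag about 1 in 20. There were 3 such mice. Scd4 in NTG mouse 8 was 1.19 CPM, against 3.67 to 4.12 CPM in the other NTG mice, a gap of 0.845 of the range. This mouse also had the most ribosomal RNA-like counts, 7.50%.

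Fads3 in APP/PS1 mouse 16 was 22.4 CPM, against 28.6 to 30.5 CPM in the other APP/PS1 mice, a gap of 0.764 of the range. Striatal markers summed to 2057 CPM in that mouse, and its ribosomal RNA-like counts were the fewest, 2.40%. Elovl6 in APP/PS1 mouse 19 was 242.0 CPM, against 52.7 to 70.8 CPM, a gap of 0.904 of the range. The part of library composition in these values was not tested.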

How the results depend on the processing

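The difference of Scd4 in CP2-treated against vehicle APP/PS1 mice lay between -1.78 and -1.68 over 8 other settings and between -1.86 and -1.68 with each mouse left out. Against NTG it lay between -1.91 and -1.61, and between -2.08 (without NTG mouse 8) and -1.69. Elovl2 in CP2-treated against NTG mice passed the threshold in each of these settings. In APP/PS1 against NTG mice it lost it with the ribosomal RNA-like covariate (-0.31) and without NTG mouse 7, 8 or 9, at values from -0.47 to -0.38 over the mice left out. The number of the 9 tested members that passed was then 0, and 0 to 1 over the mice left out. In CP2-treated against NTG mice it was 1 with no filter, in the joint fit and with the covariate, and 1 to 2 over the mice left out, as Elovl6 missed the threshold.

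Over the whole table, DESeq2 called 1667 and limma-voom 1563 genes in APP/PS1 against NTG mice, where edgeR called 932, and the count ranged from 578 (without NTG mouse 9) to 1474 (without mouse 16). In CP2-treated against NTG mice edgeR called 989 and DESeq2 1670 genes, with 572 (without NTG mouse 9) to 1123 over the mice left out. Between the APP/PS1 groups edgeR called 1 gene, with 1074 at an unadjusted p under 0.05, DESeq2 called 23, the joint fit 0 and the covariate fit 2, and leaving out single mice gave 0 (without mouse 22) to 1.

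Small differences that missed the threshold changed sign. In APP/PS1 against NTG mice the covariate gave 0.041 for Scd2, 0.011 for Fads1, 0.086 for Fads2, 0.029 for Fads3 and -0.0021 for Elovl5, and leaving out a mouse gave -0.034 to 0.26 for Scd3 and -0.12 to 0.013 for Fads2. In CP2-treated against NTG mice limma-voom gave -0.0037 for Fads3 and 0.011 for Elovl5, and leaving out a mouse gave -0.098 to 0.019 for Scd1, -0.056 to 0.027 for Fads1, -0.0083 to 0.083 for Fads2, -0.029 to 0.063 for Fads3 and -0.054 to 0.0011 for Elovl5. The causes were not tested. No paired analysis was possible because the groups share no mouse numbers. At 52 to 117 reads per CP2-treated mouse, Scd4 had the fewest reads of any member. The part of depth in its precision was not tested.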
